A study of Mus musculus with 2 samples.

Results

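Ccl3, Ccl4, Ccl5, Ccl6 and Ccl9, 5 genes for secreted CC chemokines, were described across the leukocytes of pressure-overloaded mouse hearts. The members are the rows of the transcriptome matrix that carry these symbols, and all 5 were found among 31192 genes. Hearts came from Cdh5-CreERT2;REFLEX mice given tamoxifen and operated by transverse aortic constriction (TAC), a narrowing of the aorta that loads the left ventricle. Cdh5 is an endothelial gene, so Cre acts in endothelial cells, and REFLEX labels interacting cells with GFP. CD45-positive and CD45-negative cells with and without GFP were sorted and pooled, and every cell therefore shares the genotype, the drug and the operation. One transcriptome library with its hashtag library was made from this pool. There was no sham or untreated library, and the age and sex of the mice, their number and the time after the operation were not used here. With 1 library there are no replicates, so values carry 95% intervals that cover counting error only, and no difference between classes was tested. Intervals of levels and ratios take each estimated count as an independent event. Whether counts are molecules or reads was not examined, so these intervals can be too narrow.

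Chemokines are small secreted proteins that attract leukocytes through G protein-coupled receptors. CC chemokines have a pair of neighbouring cysteines near the start of the mature protein. CCL3 and CCL5 act on CCR1, among other receptors, and CCL5 also on CCR3. CCL6 and CCL9 are rodent chemokines that act through CCR1. In an injured heart these ligands are known to draw monocytes, neutrophils and T cells out of the blood.

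The 5 genes lie on mouse chromosome 11. In the RefSeq gene order the run is Ccl5, Ccl9, Ccl6, Ccl3 and Ccl4, with noncoding genes and pseudogenes between some of them. The stretches below show what makes the 5 genes one family and which pairs are close. Each is 60 bases of coding sequence from the GENCODE M21 transcripts, with the 2 neighbouring cysteine codons in capitals.
Ccl3: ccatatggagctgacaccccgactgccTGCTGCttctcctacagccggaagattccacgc
Ccl4: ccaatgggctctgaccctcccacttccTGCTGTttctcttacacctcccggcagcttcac
Ccl5: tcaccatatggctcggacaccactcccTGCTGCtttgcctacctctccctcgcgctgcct
Ccl6: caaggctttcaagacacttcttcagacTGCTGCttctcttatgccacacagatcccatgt
Ccl9: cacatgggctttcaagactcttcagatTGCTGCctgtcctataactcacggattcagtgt
Each coding sequence held 1 such pair of codons. Its first cysteine was codon 34 in Ccl3 and Ccl4 and codon 33 in Ccl5, against codon 50 in Ccl6 and codon 57 in Ccl9. Ccl3 and Ccl4 were identical at 68.5% of the bases of the longer coding sequence, and Ccl6 and Ccl9 at 65.9%. The other pairs lay between 44.2% and 60.2%. In the RefSeq table the annotated extents of Ccl3 and Ccl4 overlap, Ccl5 overlaps the noncoding gene Gm32650 and Ccl6 overlaps the noncoding gene E230016K23Rik. The sources used here do not say whether strand entered the counting, so reads from such overlaps cannot be assigned with certainty. E230016K23Rik summed to 975 counts in the deposited matrix, against 229052 for Ccl6.

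The library held 878 cells, of which 857 were kept, with 28407 to 706332 estimated counts per cell (median 77839). All 878 cell barcodes also occurred in the hashtag file. The tags could not be tied to the sorted fractions, so the members are not compared by GFP or CD45 status. Clustering without chemokine or chemokine receptor genes gave 10 clusters. Marker genes named 273 neutrophil-like, 182 monocyte-like, 52 macrophage-like, 32 conventional dendritic-like, 27 natural killer (NK) cell-like, 103 T cell-like and 161 B cell-like cells. The neutrophil-like cells formed an Icam1-high cluster of 110 cells and an Icam1-low cluster of 163, and the monocyte-like cells a classical cluster of 102 and a patrolling cluster of 80. A cluster of 27 cells met none of the marker lists and stayed unnamed. Median counts per cell differed between clusters, from 55481 in the unnamed cells to 249799 in macrophage-like cells.

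Levels are in CPM, a gene's summed counts in a class scaled to the class's total counts. The leading class differed from gene to gene: neutrophil-like cells for Ccl3, NK cell-like cells for Ccl5, macrophage-like cells for Ccl9, and no clear leader for Ccl4 and Ccl6. Against all other kept cells and with 1 CPM added to both levels, 2 of 5 members, Ccl3 and Ccl6, were at least 2-fold higher in neutrophil-like cells, where 8.84% of 18243 genes were. In macrophage-like cells it was 3 of 5 (Ccl4, Ccl6 and Ccl9; background 7.40%). In NK cell-like cells it was 2 of 5 (Ccl4 and Ccl5; background 16.1%), and in T cell-like cells it was Ccl5 alone (background 14.7%). No member passed that fold in monocyte-like cells (background 4.53%), conventional dendritic-like cells (6.59%) or B cell-like cells (16.9%). Members at least 2-fold lower than in the other kept cells were Ccl5 and Ccl9 in neutrophil-like cells (background 32.6%), Ccl3 and Ccl5 in monocyte-like cells (16.2%) and Ccl5 in macrophage-like cells (16.8%). They were Ccl3 and Ccl6 in conventional dendritic-like cells (22.6%), Ccl6 and Ccl9 in NK cell-like cells (28.4%), all but Ccl5 in T cell-like cells (18.1%) and all 5 in B cell-like cells (17.5%). These counts describe 1 library, and a class against the rest is a description, since the members vary along with the genes used to cluster.

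**Figure D1:**
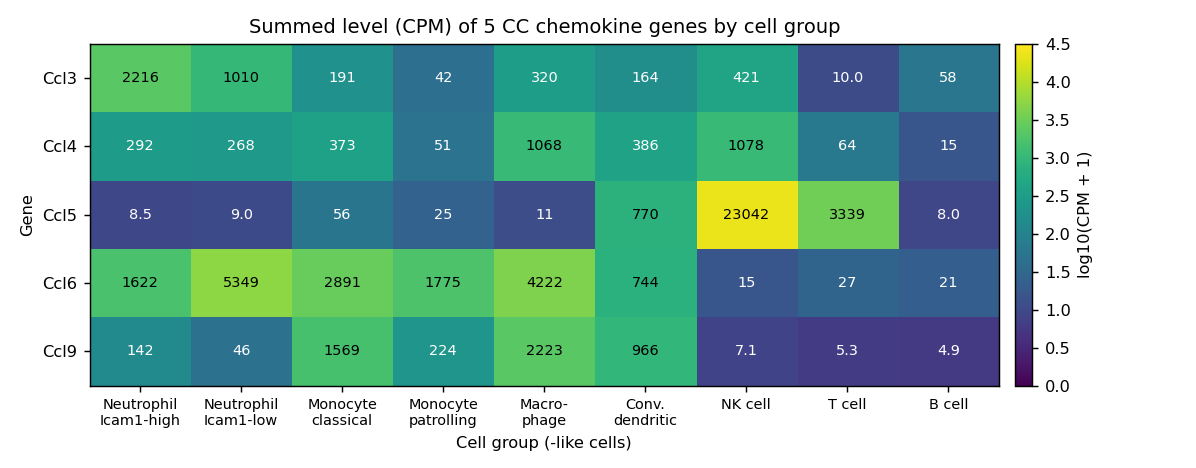
Summed level in CPM of the 5 chemokine genes (rows) in 9 named cell groups (columns), with colour on a log10(CPM + 1) scale and the CPM printed in each cell of the map. Ccl5 reached 23042 CPM in NK cell-like cells and 8.52 CPM in Icam1-high neutrophil-like cells, while Ccl6 ran from 744 to 5349 CPM in the 6 myeloid groups and from 15.3 to 27.4 CPM in the 3 lymphoid ones.

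Ccl3, a ligand of CCR1 also known as macrophage inflammatory protein 1-alpha, was highest in neutrophil-like cells in this library. It stood at 1459.7 CPM (1442.5 to 1477.0) in neutrophil-like cells and at 421 CPM (392.8 to 450.8) in NK cell-like cells, a ratio of 3.47 (3.23 to 3.72). Between these classes 3 of 5 members, Ccl3, Ccl6 and Ccl9, were at least 2-fold higher in neutrophil-like cells, against 28.7% of 10840 genes, and Ccl4 and Ccl5 were at least 2-fold lower, against 36.3%. Over single cells the neutrophil-like values ran from 0 to 14118 CPM with a median of 599, and the NK cell-like values from 0 to 6165 CPM with a median of 32.8. The ranges overlap, but the neutrophil-like values reach higher and have the higher median. More of the neutrophil-like cells were high: 109 of 273 neutrophil-like cells were at 1000 CPM or more (39.9%, 34.1 to 46.0), against 4 of 27 NK cell-like cells (14.8%, 4.19 to 33.7). Of the 20 cells with the highest Ccl3, 18 were neutrophil-like.

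Below these classes came macrophage-like cells at 320.4 CPM, conventional dendritic-like cells at 164.3 CPM, monocyte-like cells at 151 CPM, B cell-like cells at 58.0 CPM and T cell-like cells at 9.96 CPM. Single cells carried much of the lower levels. A single NK cell-like cell held 30.1% of that class's Ccl3 counts, and without it the class stood at 300.6 CPM. Macrophage-like cells without their top cell, which held 20.3%, stood at 262 CPM. One conventional dendritic-like cell held 47.9% of its class's counts (86.5 CPM without it), a cell in which no marker list had more than 2 genes at 50 CPM. In monocyte-like cells 1 classical monocyte-like cell held 41.8% of the counts (89.2 CPM without it). With every cell weighted alike, the order of macrophage-like over conventional dendritic-like cells turned round, at a ratio of 0.847, against 1.95 from summed counts. With cells thinned to 25000 counts, 17.4% of B cell-like cells had a Ccl3 count and 11.7% of T cell-like cells did. In the B cell-like class 3 cells were at 1000 CPM or more, and 1 of them held 33.6% of the class's counts.

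Within the neutrophil-like cells the Icam1-high cluster was the higher one. Ccl3 was at 2216 CPM (2181 to 2251) in Icam1-high cells and 1009.7 CPM (991.7 to 1028.0) in Icam1-low cells, 2.19 times (2.14 to 2.25). The median cell stood at 1346 CPM in the Icam1-high cluster and at 182 CPM in the Icam1-low cluster. Cells at 1000 CPM or more made up 57.3% (47.5 to 66.7) of the Icam1-high cluster and 28.2% (21.5 to 35.8) of the Icam1-low cluster. Ccl3 and Ccl9 were the members at least 2-fold higher in Icam1-high cells, as were 24.2% of 9728 genes. The median mitochondrial share was 2.18% in Icam1-high cells and 2.11% in Icam1-low cells, and the rank correlation of Ccl3 with that share over the 273 cells was -0.024.

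**Figure D2:**
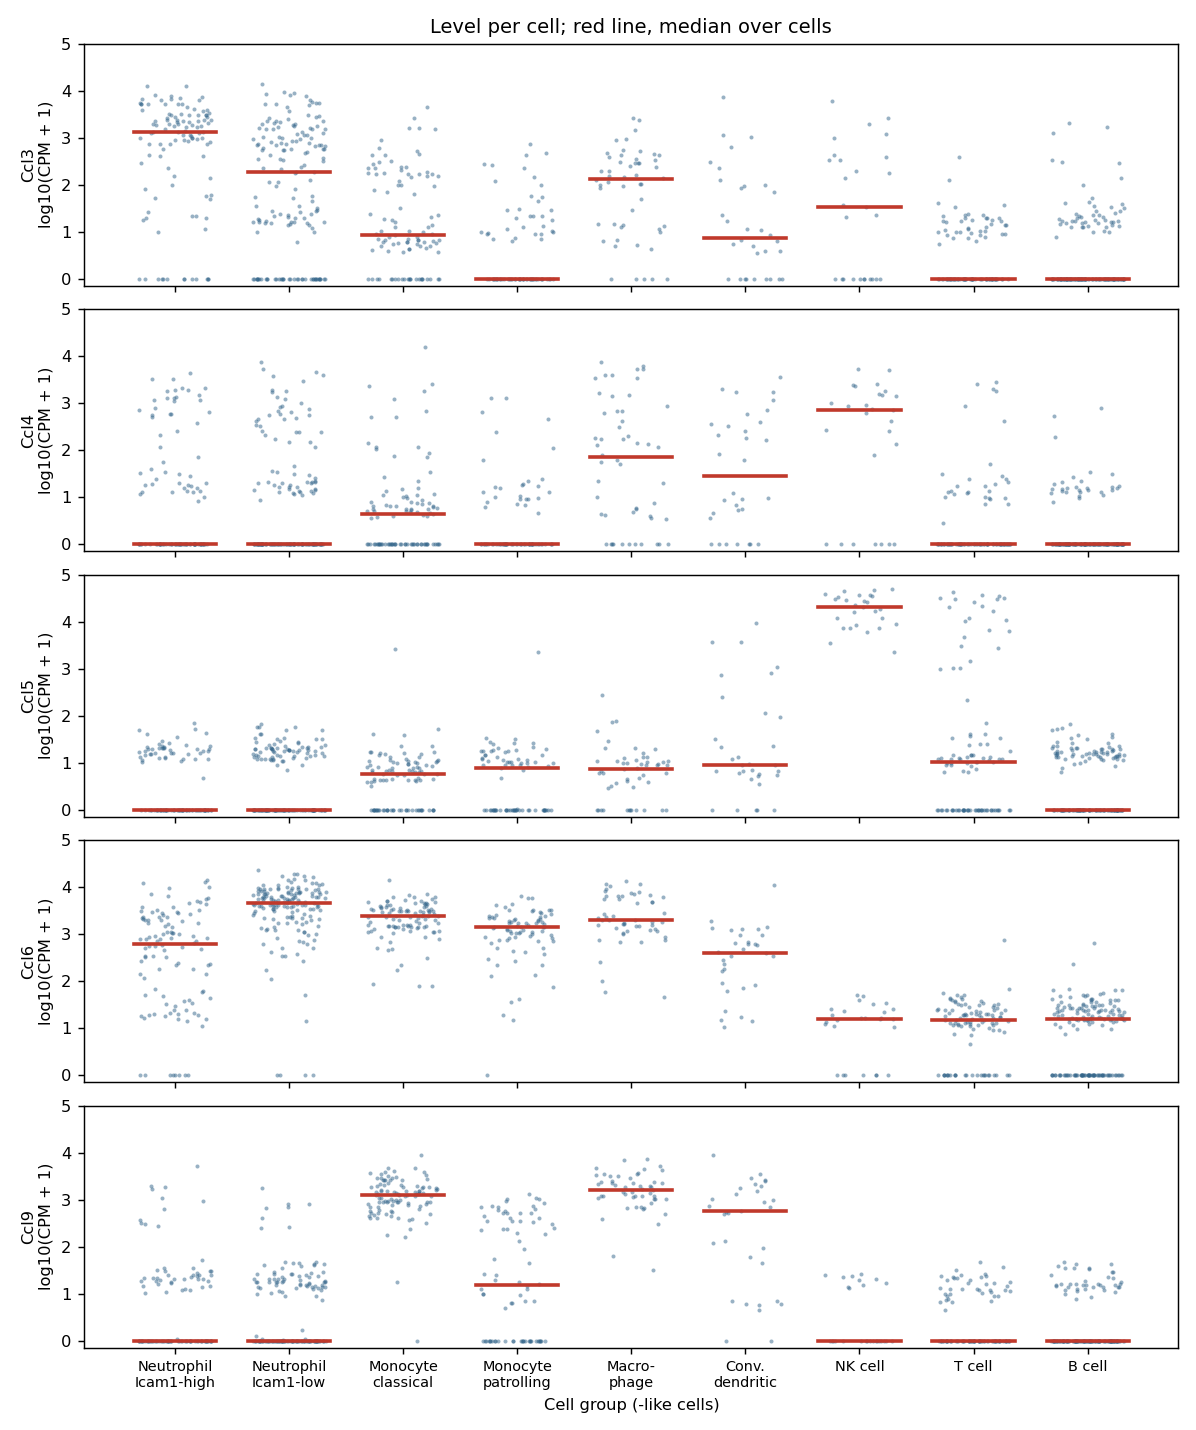
Level per cell on a log10(CPM + 1) axis for each gene (panels) in 9 cell groups, 1 point per cell, with the median over cells as a red line. Ccl3 in Icam1-high neutrophil-like cells has its median at 1346 CPM, whereas Ccl5 has its median at 21127 CPM in NK cell-like cells and splits the T cell-like cells into a few high cells and many near 0.

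Genes of NF-kappaB signalling, the pathway that switches on inflammatory chemokine genes, were counted from a list of 14. In neutrophil-like cells 5 of 14 were at least 2-fold higher than in all other kept cells, as were 8.84% of genes. At least 2-fold lower was 1 of 14, against 32.6% of genes. The median log2 ratio was 0.74, against -0.47 over all genes. Il1b, the interleukin-1 beta gene, was at 11711 CPM in neutrophil-like cells and 1431 CPM in the rest. Nfkbia, the inhibitor of NF-kappaB, was at 3899 and 1291 CPM in the same order. Between the neutrophil-like clusters 6 of 14 were at least 2-fold higher in Icam1-high cells, as were 24.2% of genes. None was at least 2-fold lower, as were 10.2% of genes. The median log2 ratio was 0.87, against 0.29 over all genes. These genes were not kept out of the clustering that formed the 2 clusters. Tnfaip3, a feedback inhibitor, stood at 567 CPM in Icam1-high cells and 169 CPM in Icam1-low cells. By the rank correlation with Ccl3 over the 273 neutrophil-like cells, thinned to 25000 counts, the nearest genes were Nfkbia (0.26), Clec4n (0.26), Dusp2 (0.25), Cxcl2 (0.25) and Bcl2a1b (0.25). All of these are weak, and the cells share 1 library.

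Ccl4, whose protein is also called macrophage inflammatory protein 1-beta, had no single leading class. NK cell-like cells stood at 1078 CPM (1032 to 1125) and macrophage-like cells at 1068 CPM (1051 to 1085), a ratio of 1.01 (0.964 to 1.06). Of the other members Ccl5 was at least 2-fold higher in NK cell-like than in macrophage-like cells, as were 25.5% of genes, and Ccl6 and Ccl9 were at least 2-fold lower, as were 31.4%. The order turns on single cells: without the highest NK cell-like cell, which held 19.5% of the class's counts, NK cell-like cells stood at 903 CPM, and macrophage-like cells without theirs, which held 19.2%, stood at 897 CPM. The spread over cells differed in shape. In NK cell-like cells the values ran from 0 to 5360 CPM with a median of 733, and in macrophage-like cells from 0 to 7428 CPM with a median of 70.2. Ccl4 was at 1000 CPM or more in 10 of 27 NK cell-like cells (37.0%, 19.4 to 57.6) and in 11 of 52 macrophage-like cells (21.2%, 11.1 to 34.7), so the NK cell-like level was carried by more of its cells, within wide counting intervals.

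Conventional dendritic-like cells followed at 386 CPM, then monocyte-like cells at 287 CPM and neutrophil-like cells at 277 CPM, a ratio of 1.03 (0.9999 to 1.07) that does not separate the last pair. One classical monocyte-like cell held 74.7% of all monocyte-like Ccl4 counts, and without it the class stood at 73.4 CPM. T cell-like cells were at 63.9 CPM and B cell-like cells at 15.2 CPM. Unlike Ccl3, Ccl4 was close to level between the neutrophil-like clusters, at 292 CPM in Icam1-high cells and 268 CPM in Icam1-low cells, 1.09 times (1.03 to 1.15). Without the highest Icam1-high cell the ratio was 0.979, and without the highest Icam1-low cell it was 1.28.

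Ccl3 and Ccl4 were seen in the same cells in part. After thinning to 25000 counts, 74 of the 89 neutrophil-like cells with a Ccl4 count also had a Ccl3 count (83.1%), against 70.3% of all 273. Conversely 38.5% of the 192 neutrophil-like cells with Ccl3 had Ccl4, and 18.5% of those without Ccl3 did. The rank correlation of the thinned counts was 0.20 over neutrophil-like cells, 0.46 over the 52 macrophage-like cells and 0.28 over the 27 NK cell-like cells. These are descriptions over cells that share a library, and any count spilled between the overlapping annotations of the 2 genes would enter them.

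Ccl5, known as RANTES and a product of cytotoxic lymphocytes, was a transcript of NK cell-like cells and of some T cell-like cells. NK cell-like cells were at 23042 CPM (22830 to 23256) and T cell-like cells at 3339 CPM (3305 to 3374), a ratio of 6.90 (6.805 to 6.997). Ccl3, Ccl4 and Ccl5 were at least 2-fold higher in NK cell-like than in T cell-like cells, as were 20.2% of genes, and no member was at least 2-fold lower, as were 28.4% of genes. All 27 NK cell-like cells were at 1000 CPM or more, from 2317 to 50115 CPM with a median of 21127. T cell-like cells ran from 0 to 42651 CPM with a median of 9.11. So every NK cell-like cell was high, while the T cell-like cells overlapped with them at the top and with B cell-like cells at the bottom. NK cell-like cells made up 3.15% of the kept cells and held 50.4% of all Ccl5 counts, and T cell-like cells, 12.0% of the cells, held 39.7%.

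Conventional dendritic-like cells came next at 769.98 CPM, and 4 of these 32 cells were at 1000 CPM or more (12.5%, 3.51 to 29.0). Of the class's counts 1 cell held 66.8% (270.7 CPM without it), and no marker list had more than 2 genes at 50 CPM in that cell. Monocyte-like cells were at 47.6 CPM, and 1 classical monocyte-like cell held 77.9% of that (10.7 CPM without it). This cell was the one that also held most of the monocyte-like Ccl4 and the largest share of its Ccl3. It carried 4593 CPM of Ccl3, 15571 CPM of Ccl4 and 2696 CPM of Ccl5, with Ccl6 at 85.9 CPM. At 50 CPM or more it had 4 classical monocyte and 4 conventional dendritic markers and 0 of the T cell and NK cell markers, so its place among the classical monocyte-like cells is uncertain. Macrophage-like cells were at 10.7 CPM, neutrophil-like cells at 8.85 CPM and B cell-like cells at 8.03 CPM, and neighbours in this order did not differ beyond counting error. One macrophage-like cell held 32.5% of its class's counts. After thinning to 25000 counts, 25%, 19.8% and 19.9% of these cells had a count, and free RNA in the library was not measured.

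Within the 103 T cell-like cells Ccl5 was all but confined to a minority. The 22 cells at 1000 CPM or more held 99.6% of the class's Ccl5 counts, with a median of 14549 CPM, and the other 81 stood at 17.2 CPM. This is a range of values, not a cell type, and 4 cells lay between 500 and 2000 CPM. Depth was similar, with median counts of 96415 in the high cells and 87657 in the rest. Without thinning, Nkg7, a cytotoxic granule membrane gene, was found in 21 of the 22 high cells and in 16 of the other 81. Gzmb, the granzyme B gene, was found in 10 of 22 and 3 of 81. Other cytotoxic granule genes varied: Ctsw was found in 15 and 14 cells, Cst7 in 9 and 9, Gzmk in 3 and 6 and Gzmm in 8 and 0. The median cell was at 0 in both sets for Gzmb, Cst7, Gzmk and Gzmm. Srgn was found in every cell, at 1974 CPM in the high cells and 2221 CPM in the rest. Ccr7, a homing receptor gene of naive and central memory T cells, was found in 6 of 22 high cells and 52 of 81 others. Lef1 was found in 13 of 22 and 56 of 81. Trac, a T cell receptor constant gene, was found in 21 of 22 and 70 of 81, at median levels of 577 and 765 CPM. Of NK genes, Klrb1c was above 0 in 6 of 22 and 2 of 81 and Ncr1 in 1 of 22 and 1 of 81, with medians of 0 in both sets. Their summed levels were higher in the high cells, at 31.8 against 0.081 CPM for Klrb1c and 15.3 against 0.12 CPM for Ncr1. The cell with most Ccl5 had 8 of 12 T cell and 3 of 9 NK markers at 50 CPM or more. Another high cell, at 30534 CPM, had 9 and 5. Some high cells thus carried NK markers, and the full NK list was not compared between the 2 sets.

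High cells occurred in each T cell subset. T cell-like cells with Cd8a or Cd8b1 but no Cd4 held 12 high cells of 32 (37.5%, 21.1 to 56.3), those with Cd4 alone 6 of 33 (18.2%, 6.98 to 35.5), and the remaining cells 4 of 38 (10.5%, 2.94 to 24.8). The summed level was 5835 CPM in the Cd8 subset and 2622 CPM in the Cd4 subset, 2.22 times (2.17 to 2.28). One Cd4 cell held 48.7% of its subset's counts. Ccl4 was at 269 CPM in the 22 Ccl5-high T cell-like cells and at 3.53 CPM in the rest.

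**Figure D3:**
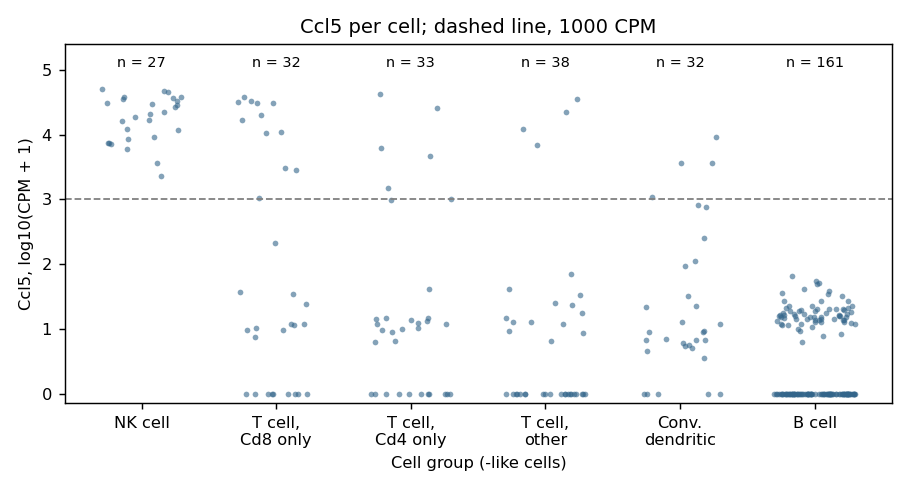
Ccl5 per cell on a log10(CPM + 1) axis in NK cell-like cells, in 3 subsets of T cell-like cells, in conventional dendritic-like cells and in B cell-like cells, 1 point per cell, with 1000 CPM as a dashed line. All 27 NK cell-like cells lie above the line. So do 12 of 32 Cd8, 6 of 33 Cd4 and 4 of 38 other T cell-like cells. Of the conventional dendritic-like cells 4 of 32 do, and no B cell-like cell does.

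Cytotoxic granule genes were counted from a list of 7. In NK cell-like cells 4 of 7 were at least 2-fold higher than in the rest, as were 16.1% of genes, and 2 at least 2-fold lower, as were 28.4%. The median log2 ratio was 4.12, against -0.26 over all genes. Nkg7 was at 4072 CPM in NK cell-like cells and 34.2 CPM in the rest, and Gzmb at 3005 and 56.6 CPM. In T cell-like cells 5 of 7 were at least 2-fold higher, as were 14.7% of genes, and 1 at least 2-fold lower, as were 18.1%. The median was 2.50, against -0.015 over all genes. The list was not confined to these classes. In conventional dendritic-like cells Gzmb and Cst7 were at least 2-fold higher, as were 6.59% of genes, and 4 of 7 at least 2-fold lower, as were 22.6%. Over the 10 clusters the genes most like Ccl5 by Pearson's r of log2(CPM + 10) were Cst7 (0.97), Tnfrsf9 (0.96), Gzmb (0.96), Serpinb9 (0.96) and Gm33104 (0.95). Xcl1, a lymphotactin gene often released with CCL3 to CCL5, was at 662 CPM in NK cell-like cells and 2.38 CPM in the rest, and 1 cell held 38.3% of its NK cell-like counts.

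Ccl6, a rodent CCR1 ligand also called C10, was found across the myeloid classes. Macrophage-like cells were at 4222 CPM (4189 to 4257) and neutrophil-like cells at 3958.5 CPM (3930 to 3987), a ratio of 1.07 (1.06 to 1.08). Ccl4 and Ccl9 were at least 2-fold higher in macrophage-like than in neutrophil-like cells, as were 34.6% of genes, and Ccl3 was at least 2-fold lower, as were 18.3%. This order is not stable. The ratio was 0.940 with every cell weighted alike, and the log2 ratio was -0.028 without the highest macrophage-like cell and -0.052 at a clustering resolution of 0.5, against 0.093. With the top cell of each class left out, macrophage-like cells were at 3884 CPM and neutrophil-like cells at 3876 CPM. Monocyte-like cells followed at 2593 CPM and conventional dendritic-like cells at 744 CPM. T cell-like, B cell-like and NK cell-like cells were at 27.4, 21.5 and 15.3 CPM, and a count was found in 34.0%, 28.6% and 40.7% of them after thinning. One T cell-like cell held 43.5% of its class's counts and 1 B cell-like cell 24.4% of its class's. After the same thinning a count was found in all 52 macrophage-like cells, in 98.4% of monocyte-like cells and in 89.4% of neutrophil-like cells.

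Ccl6 ran opposite to Ccl3 between the neutrophil-like clusters. Icam1-high cells were at 1622 CPM (1592 to 1652) and Icam1-low cells at 5349 CPM (5308 to 5391), 0.303 times (0.297 to 0.309). Ccl6 was one of the 10.2% of genes that were at least 2-fold lower in Icam1-high cells. The median cell stood at 618 CPM in the Icam1-high cluster and at 4680 CPM in the Icam1-low cluster, and 40.0% of Icam1-high cells against 86.5% of Icam1-low cells were at 1000 CPM or more. The ratio was 0.315 with every cell weighted alike. Neutrophil-like cells with at least 5% mitochondrial counts had the lower Ccl6, at 3065 CPM in 76 cells, against 4286 CPM in the other 197, and the part of that share in the level was not tested. Within the monocyte-like cells Ccl6 was at 2891 CPM in classical cells and 1775 CPM in patrolling cells, 1.63 times (1.60 to 1.66).

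The make-up of the 5 genes also changed between the neutrophil-like clusters. By counts, Ccl3 made 51.8% and Ccl6 37.9% of the members' sum in Icam1-high cells, against 15.1% and 80.1% in Icam1-low cells. Levels were also divided by the length of each gene's longest GENCODE transcript, in kilobases. That scale assumes that counts grow with transcript length, which was not tested for this library, so shares between genes are uncertain. Ccl3 made 63.9% and Ccl6 24.9% of the summed per-kilobase level in Icam1-high cells, against 24.1% and 67.9% in Icam1-low cells. On the per-kilobase scale Ccl5 made 95.2% of the NK cell-like sum and 98.0% of the T cell-like sum, against 93.8% and 96.9% by counts. Ccl6 led in macrophage-like cells (51.2%, and 53.8% by counts) and in patrolling monocyte-like cells (83.0%, and 83.9% by counts). Other ranks changed with the scale. In macrophage-like cells Ccl9 made 28.3% and Ccl4 13.6% by counts, against 12.9% and 28.2% per kilobase. The leader in conventional dendritic-like cells was Ccl9 by counts (31.9%) and Ccl5 per kilobase (46.9%).

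Ccl9, a CCR1 ligand also called macrophage inflammatory protein 1-gamma, was high in macrophage-like cells, as Ccl6 was, but low in neutrophil-like cells. Macrophage-like cells were at 2223 CPM (2198 to 2248) and monocyte-like cells at 1210.1 CPM (1198 to 1222), a ratio of 1.84 (1.81 to 1.86). Ccl9 was under the 2-fold line here, which Ccl3 and Ccl4 passed upward, as did 12.0% of genes, and Ccl5 downward, as did 11.7%. Over cells, the values ran from 31.5 to 7560 CPM with a median of 1654 in macrophage-like cells, and from 0 to 8941 CPM with a median of 632 in monocyte-like cells. The monocyte-like class pools 2 unlike clusters. Its classical cluster, at 1569 CPM with a median of 1276, was closer to macrophage-like cells than the pooled ratio shows. Conventional dendritic-like cells were at 966 CPM, below monocyte-like cells by summed counts, at a ratio of monocyte-like to dendritic-like of 1.25, and above them with cells weighted alike, at 0.857. One dendritic-like cell held 28.6% of that class's Ccl9 counts (748 CPM without it) and 20.3% of its Ccl6 counts. It had 6 macrophage markers at 50 CPM or more, the most of any list, so its place in this class is uncertain. Neutrophil-like cells were at 81.7 CPM, so macrophage-like cells stood 27.2 times (25.9 to 28.7) as high. Ccl9 was at 142 CPM in Icam1-high and 45.9 CPM in Icam1-low neutrophil-like cells, 3.09 times (2.78 to 3.43), at 2.02 times without the highest Icam1-high cell and at 4.39 times without the highest Icam1-low cell, while the median cell was at 0 in both clusters. NK cell-like, T cell-like and B cell-like cells, at 7.14, 5.26 and 4.89 CPM, did not differ beyond counting error.

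The monocyte-like clusters split for Ccl9. Classical cells were at 1569 CPM (1553 to 1584) and patrolling cells at 224 CPM (214 to 234), 7.01 times (6.70 to 7.34), where 15.3% of 12437 genes were at least 2-fold higher in classical cells. No member was at least 2-fold lower there, as 19.0% of genes were. The median was 1276 CPM in classical cells and 14.0 CPM in patrolling cells, and 59 of 102 classical cells against 4 of 80 patrolling cells were at 1000 CPM or more. The ratio was 6.98 with every cell weighted alike. Of the other members, Ccl3 at 4.51 times, Ccl4 at 7.36 times and Ccl5 at 2.28 times were also past 2-fold, but single cells on either side moved them. Without the highest classical cell the ratios were 2.52 for Ccl3, 1.62 for Ccl4 and 0.225 for Ccl5, and without the highest patrolling cell they were 5.38, 12.9 and 8.01. With both of these cells left out, Ccl3 was at 107 CPM in classical and 35.5 CPM in patrolling cells, Ccl4 at 81.9 and 28.8 CPM, and Ccl5 at 5.52 and 6.99 CPM.

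Ccl6 and Ccl9 levels went together in some cell groups and not in others. Over cells thinned to 25000 counts the rank correlation was 0.77 in the 52 macrophage-like cells, 0.61 in the 32 conventional dendritic-like cells and 0.44 in the 102 classical monocyte-like cells. It was 0.11 in the 80 patrolling monocyte-like cells, 0.021 in Icam1-high and -0.11 in Icam1-low neutrophil-like cells. Without the cell with most Ccl6 counts before thinning it was 0.76 in macrophage-like, 0.57 in conventional dendritic-like and 0.43 in classical monocyte-like cells. The dendritic-like cell left out is the one with 6 macrophage markers, at 1954 CPM of Ccl6. The dendritic-like cell highest by CPM, with Ccl6 at 11088 and Ccl9 at 8860 CPM, stayed in. The macrophage-like cell left out, at 12057 CPM of Ccl6, was also not the highest by CPM, which was at 13888 CPM. Among all genes above 0 in at least 20% of macrophage-like cells, each was the other's nearest gene, and the next nearest stood at 0.56 for Ccl6 (Acbd3) and 0.50 for Ccl9 (9430038I01Rik). The points share a library and the genes share sequence, and the part of reads assigned to the wrong gene was not tested. Ccl9 had 0.526 counts for each Ccl6 count in macrophage-like cells, 0.543 in classical and 0.126 in patrolling monocyte-like cells, and 0.0875 in Icam1-high and 0.0086 in Icam1-low neutrophil-like cells. Fractional parts made up 0.022% of Ccl6 counts and 0.011% of Ccl9 counts, and the macrophage-like correlation was 0.76 with fractions dropped.

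**Figure D4:**
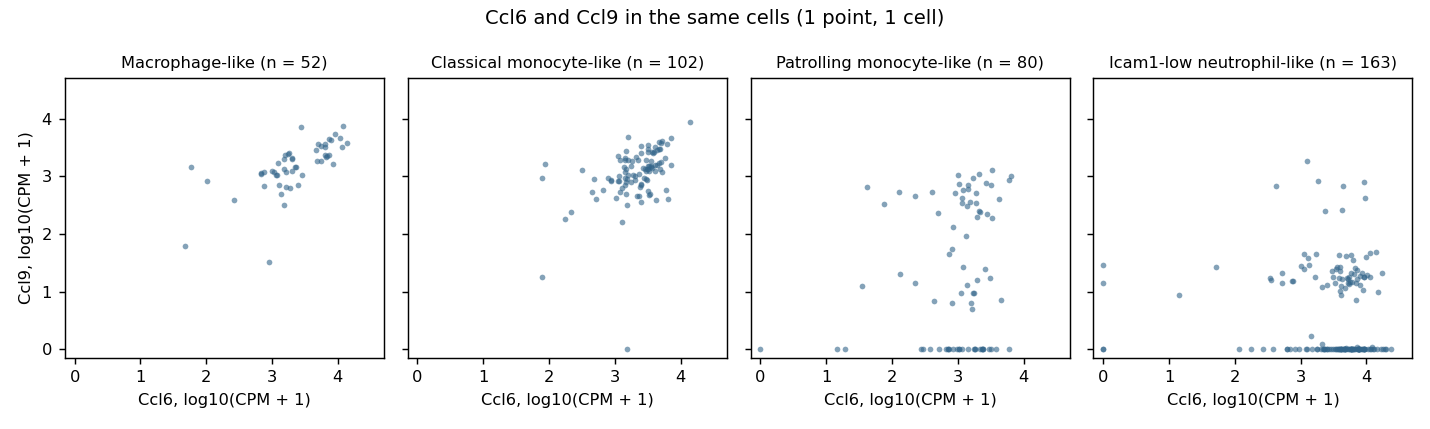
Ccl9 against Ccl6 per cell, both on log10(CPM + 1) axes, in 4 cell groups, 1 point per cell. Points rise together in the 52 macrophage-like cells (rank correlation 0.77 after thinning), less so in classical monocyte-like cells (0.44), and Icam1-low neutrophil-like cells are high in Ccl6 at any Ccl9 value.

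RefSeq promoter sequences (GRCm38.p6) were at hand for 3 of the 5 genes, Ccl3, Ccl6 and Ccl9, and are shown because Ccl3 was highest in neutrophil-like cells, Ccl9 in macrophage-like cells and Ccl6 was high in both. Each is the 250 bases before the gene's start on the minus strand, at chr11:83649379-83649628 for Ccl3, chr11:83593088-83593337 for Ccl6 and chr11:83578637-83578886 for Ccl9. Capitals mark matches, on either strand, to GGAAGT, a core of the PU.1 and ETS sites of myeloid genes.
Ccl3: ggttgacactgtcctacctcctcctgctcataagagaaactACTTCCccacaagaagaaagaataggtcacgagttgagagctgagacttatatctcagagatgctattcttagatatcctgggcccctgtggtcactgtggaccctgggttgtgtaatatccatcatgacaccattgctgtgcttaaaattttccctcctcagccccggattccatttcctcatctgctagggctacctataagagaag
Ccl6: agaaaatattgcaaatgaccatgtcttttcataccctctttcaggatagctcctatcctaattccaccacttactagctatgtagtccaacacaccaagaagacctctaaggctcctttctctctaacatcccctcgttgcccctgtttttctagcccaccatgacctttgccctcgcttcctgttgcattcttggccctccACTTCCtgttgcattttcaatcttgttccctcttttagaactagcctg
Ccl9: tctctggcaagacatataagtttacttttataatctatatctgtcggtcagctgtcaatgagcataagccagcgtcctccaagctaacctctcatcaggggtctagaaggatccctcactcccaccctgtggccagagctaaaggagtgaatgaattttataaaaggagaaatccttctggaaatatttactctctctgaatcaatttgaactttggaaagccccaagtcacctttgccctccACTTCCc
Each of the 3 held 1 such match, and 19.7% of 32851 promoters of that length held at least 1. It lay at -209 in Ccl3, -48 in Ccl6 and -7 in Ccl9, counted from the first base of the match to the start. The Ccl9 stretch also held 1 match to the NF-kappaB motif at -35, and 3.90% of promoters hold at least 1. It held 1 match to the AP-1 motif TGANTCA at -53 (at least 1 in 6.75%) and 3 to TATAAA (at least 1 in 12.4%). Ccl3 and Ccl6 held none of these, and none of the 3 held the C/EBP motif TTGCNNAA, which 9.56% of promoters hold. All motifs were searched on both strands, and no pair of these matches in Ccl9 overlapped except 2 of the TATAAA matches. The longest run shared by Ccl6 and Ccl9 was 13 bases, gccctccacttcc, at -55 and -14, and it contains the GGAAGT match of both. The longest run that Ccl3 shared with either was 8 bases. A match describes letters in this window and not binding.

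Receptor genes were read from the same cells. Ccr1, the receptor shared by CCL3, CCL5, CCL6 and CCL9, had its top level, 816 CPM (803 to 829), in neutrophil-like cells, with monocyte-like cells at 160.3 CPM, macrophage-like cells at 126 CPM and conventional dendritic-like cells at 45.3 CPM. It was at 959 CPM in Icam1-high and 731 CPM in Icam1-low neutrophil-like cells. Among monocyte-like cells it was at 217.5 CPM in classical cells and 2.84 CPM in patrolling cells, 76.5 times (51.8 to 118). T cell-like cells had 20.1 CPM, of which 1 cell held 97.7%, and NK cell-like cells 1.53 CPM. Ccr3, an eosinophil receptor for CCL5, did not pass 5.88 CPM in any of the 7 classes. Ccrl2, an atypical receptor that does not signal like the others, was at 1599 CPM in Icam1-high and 618 CPM in Icam1-low neutrophil-like cells.

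**Figure D5:**
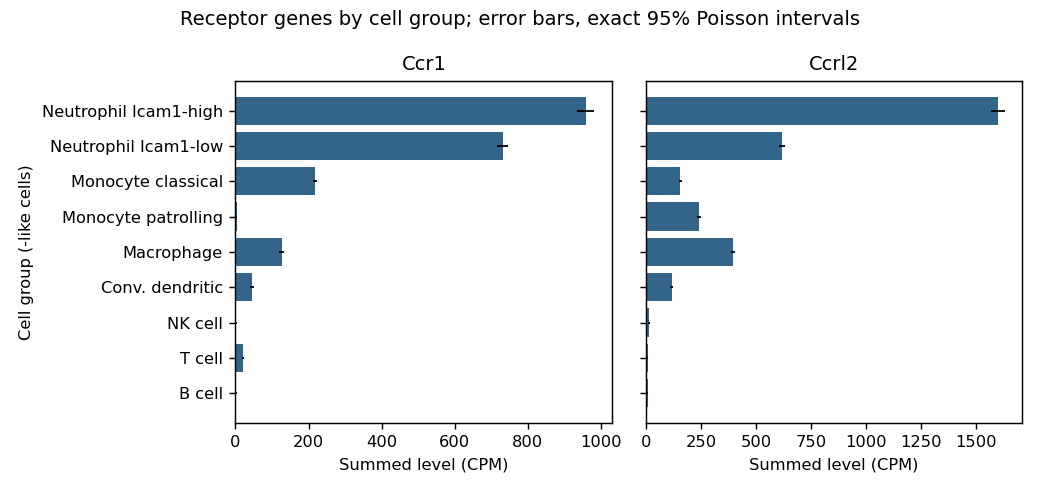
Summed level in CPM (bars from 0) of the receptor genes Ccr1 and Ccrl2 in 9 cell groups, with exact 95% Poisson intervals as error bars. Both are highest in Icam1-high neutrophil-like cells, Ccr1 at 959 CPM and Ccrl2 at 1599 CPM.

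Other CC ligands were counted from a list of 13, of which 10 are in the matrix and 9 could be measured against the rest. In macrophage-like cells 5 of 9 were at least 2-fold higher, as were 7.40% of genes, and 3 at least 2-fold lower, as were 16.8%. The median log2 ratio was 3.79, against -0.20 over all genes. Ccl2, a monocyte attractant, was at 2153 CPM in macrophage-like cells and 155 CPM in the rest, and Ccl7 at 1457 and 19.8 CPM. None of the 9 was at least 2-fold higher in neutrophil-like, monocyte-like or NK cell-like cells, against 8.84%, 4.53% and 16.1% of genes. In the same order 8, 6 and 8 were at least 2-fold lower, against 32.6%, 16.2% and 28.4% of genes. The 5 members accordingly made 97.9% of the CC ligand counts of neutrophil-like cells and 99.97% of those of NK cell-like cells, against 60.6% in macrophage-like cells. In conventional dendritic-like cells 2 of 9, Ccl22 and Ccl17, were at least 2-fold higher, as were 6.59% of genes, and 1 cell held 81.0% and 83.0% of their counts in that class. The other 7 were at least 2-fold lower, as were 22.6% of genes.

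Of the CXC and XC ligands, 9 on the list and 7 measured, 3 were at least 2-fold higher in neutrophil-like cells, as were 8.84% of genes. At least 2-fold lower were 2, against 32.6% of genes. The median log2 ratio was 0.50, against -0.47 over all genes. Cxcl2, a neutrophil attractant, was at 15548 CPM in neutrophil-like cells and 840.5 CPM in the rest, where Ccl3 was also highest. Of 16 genes that carry the signal of chemokine receptors, 3 (Gng2, Rac2 and Arrb2) were at least 2-fold higher in neutrophil-like cells, as were 8.84% of genes. Another 3 (Plcb3, Pik3r5 and Rgs1) were at least 2-fold lower, as were 32.6%. The median log2 ratio was 0.32, against -0.47 over all genes. Rac2, a GTPase of leukocyte migration, was at 1252 CPM in neutrophil-like cells and 458 CPM in the rest. Of the proteases that trim CC chemokines, Dpp4 was at 114 CPM in conventional dendritic-like cells and 19.3 CPM in the rest, and Mmp12 at 64.4 and 8.28 CPM. In macrophage-like cells Mmp12 was at 43.1 CPM against 8.43 CPM in the rest, and Dpp4 at 0.949 CPM against 32.1 CPM.

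Genes most like each remaining member over the 10 clusters, by Pearson's r of log2(CPM + 10), were Arrdc4 (0.93) and Ubl7 (0.91) for Ccl3, Tagln2 (0.90) and Ndufb9 (0.83) for Ccl4, Alox5ap (0.97) and Lrrc25 (0.97) for Ccl6, and Mt1 (0.99) and Mcrip1 (0.97) for Ccl9. Between members the same measure was highest for Ccl6 and Ccl9 (0.74) and Ccl3 and Ccl4 (0.65), the pairs closest in coding sequence, and lowest for Ccl5 and Ccl6 (-0.64). These rest on 10 points from 1 library. The unnamed cluster held Ccl9 at 564 CPM and Ccl6 at 390 CPM, with Ccl4 at 74.7 CPM, Ccl3 at 69.2 CPM and Ccl5 at 28.9 CPM.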

How the data were processed

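Hearts of TAC-operated mice were sorted, pooled and run as 1 BD Rhapsody library with the TAS-Seq workflow, per the labels' protocols. The deposited matrix holds estimated counts per gene and cell as the authors made them, and 69.8% of its values above 0 are whole numbers. The deposited hashtag file holds counts per tag and barcode. The submitters' processing notes name genome build GRCm39 and the tools STAR, STARsolo 2.7.10b, R 4.3.1 and cutadapt 4.1, with no settings.

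Cells with at least 500 counts, 200 genes and at most 25% mitochondrial counts were kept, which left out 21 of 878. Clusters came from scanpy 1.11.5 and leidenalg 0.10.2 (Python 3.11.15): 2000 variable genes without chemokine and chemokine receptor genes, 30 components, 15 neighbours, resolution 1. A cluster was named from at least 3 markers at 50 CPM or more and at least 2-fold above other cells. Scrublet marked 2 cells (0.233%), which stayed in, as did 46 kept cells named doublet by the authors.

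Levels are summed counts in CPM with exact Poisson intervals, ratios and shares have Clopper-Pearson intervals (95%), and all cover counting error only. Those of levels and ratios hold only if each estimated count is an independent event, which was not examined. Ratios across all genes used 1 CPM added to both sides and genes with at least 50 summed counts. Shares of cells with a count and rank correlations between genes used cells thinned to 25000 counts. Detection in the Ccl5-high and other T cell-like cells and the Cd8 and Cd4 split used counts that were not thinned. So did the rank correlation of Ccl3 with the mitochondrial share. The ratio script was tested on simulated data. The members and gene lists were chosen with earlier results of these data known. Named were the 5 members, up to 4 genes of each list with the highest level in a class, and the 5 genes most like each member. Genes and single cells named outside that rule were chosen after their values were seen, as were the line of 1000 CPM and the cluster ratios without a single cell. No test across samples was possible with 1 library. Some genes of the lists are not reported here.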

Additional observations from a re-analysis of the deposited data

How the results depend on the processing

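The ratio of the highest to the next class was recomputed under 8 alternatives for each member. Ccl3, Ccl5 and Ccl9 kept their direction and their leading class in all 8, with log2 ratios of 1.47 to 1.79, 2.58 to 2.79 and 0.72 to 1.11. Ccl6 turned round in 3 of 8, and Ccl4, whose interval includes no difference, ran from -0.24 to 0.25. With each cell weighted alike the log2 ratios were 1.47 for Ccl3, 0.25 for Ccl4, 2.58 for Ccl5, -0.089 for Ccl6 and 1.11 for Ccl9. Without the cell with most counts in the higher class they were -0.24 for Ccl4, 2.71 for Ccl5, -0.028 for Ccl6 and 0.72 for Ccl9. The next class kept its own top cell, so this setting could only lower the level of the higher class. At a clustering resolution of 0.5 they were 0.16 for Ccl4, -0.052 for Ccl6 and 0.75 for Ccl9, where macrophage-like cells numbered 79 in place of 52, and at 1.5 Ccl6 was at 0.19. With at most 10% mitochondrial counts Ccl5 was at 2.75 and Ccl6 at 0.037. Ccl5 was at 2.75 without cells named doublet and at 2.76 with chemokine genes left in the clustering. The cause of these shifts was not tested. The other values, including all 5 with the fractional part dropped, stayed within the main counting intervals. No paired analysis was possible because the labels give 1 transcriptome library and no groups. The lymphoid levels of Ccl6 and Ccl9 and the Ccl5 level of neutrophil-like cells rest on few counts per cell, and small classes rest on few cells.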
